A study of Mus musculus with 4 samples.

Results

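Dendritic cells were examined among single lung cells of 4 mice, of which 2 carried floxed Erg alleles alone (ERG fl/fl, libraries labelled WT) and 2 carried the same alleles with the Cre recombinase CDH5-CreER(T) (libraries labelled ERG CKO). The Cre is driven by the Cdh5 promoter, so recombination is directed to endothelial cells and dendritic cells themselves are not its target. All 4 mice received tamoxifen as 5 daily doses of 0.5 mg, and whole lungs were dissociated 90 days later for 10x droplet sequencing of 1 library per mouse. The age of these animals is not given in the labels. Members were chosen by measured values in each cell: UMIs (unique molecular identifiers, each marking 1 captured RNA molecule) of at least 2 of the 8 genes Flt3, Xcr1, Clec9a, Cd209a, Zbtb46, Ccl22, Siglech and Fscn1, at least 5 UMIs of Cd74, and 0 UMIs of Cd3e, Cd79a, Cdh5 and Col1a2. This rule selected 135 of 9363 cells.

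Dendritic cells capture antigen in the airway wall and alveoli, carry it to lymph nodes through the receptor Ccr7, and present it to T cells on MHC class II molecules. Conventional type 1 cells (cDC1) depend on the transcription factors Irf8 and Batf3, sense dead cells through Clec9a, bear the chemokine receptor Xcr1, whose ligand is released by T and NK cells, and are specialised for cross-presentation to CD8 T cells. Conventional type 2 cells (cDC2) depend on Irf4, bear lectins such as Cd209a and Mgl2, and mainly prime CD4 T cells. Mature migratory cells produce Ccl22 and Fscn1, which bundles actin, and plasmacytoid cells, marked by Siglech, are known for interferon production.

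Of 4 dendritic cell markers that the rule did not use, 3 were found more often in the selected cells. Itgax, the integrin CD11c, was detected in 77.8% of the 135 cells and in 12.8% of all other cells. Batf3 was detected in 57.8% against 2.11%, and Clec10a, a lectin of cDC2, in 42.2% against 0.943%. The fourth, Ccr7, which T and B cells also express, was found in 18.5% against 20.5%. Ranked by the smallest ratio to the other cells in any library, with 10 CPM added to both, Mgl2 led the genes outside the rule, with 554 to 1200 CPM (UMIs of a gene scaled to a library total of 1e6 UMIs) in dendritic cells and 6.84 to 15.4 CPM in the rest of each library. Ccl17, a chemokine that draws T cells, followed with 271 to 714 CPM against 0.835 to 5.86 CPM, and the MHC class II gene H2-Eb1 with 8491 to 14804 CPM against 465 to 886 CPM. Slamf7, Plbd1, Ckb and Tnip3 were likewise among the 10 genes that led this order. These genes were picked after their values were seen, and no test applies to a comparison of selected cells with the rest.

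Defining markers of B cells and NK cells were at 0. Ms4a1, Ebf1, Pax5, Klrb1c and Prf1 had 0 UMIs in the dendritic cells, and so had the mast cell or basophil genes Mcpt8, Cpa3, Ms4a2 and Fcer1a, while Ighm was found in 64.4% of the cells, with 245 UMIs in all, and in 22.6% of other cells. Of 7 epithelial markers, Scgb1a1 was found in 56.3% of dendritic cells and 35% of other cells and Epcam in 40% and 7.05%, and the 7 summed to 188 to 309 CPM in dendritic cells and 5204 to 21038 CPM in other cells. Monocyte markers, 10 genes, summed to 1218 to 2224 CPM in dendritic cells and 2098 to 2681 CPM in the other cells. Of these, Ccr2 was found in 65.9% of dendritic cells and 7.56% of other cells, and Ace in 6.67% and 44.4%. No alternative left out cells by monocyte markers. Macrophage markers were present in each of the 4 libraries, with 1039 to 3996 summed CPM of 13 genes in dendritic cells and 3809 to 5416 CPM in the other cells. Ear2 was found in 40%, Adgre1 in 31.9% and Mrc1 in 26.7% of the dendritic cells. At least 3 macrophage markers were seen in 8, 8, 15 and 13 cells of WT replicates 1 and 2 and ERG CKO replicates 1 and 2. Shares, some of the gene lists and the gene fit are given without these cells where each is described.

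Of the 8 genes, Flt3, the receptor of the growth factor that maintains dendritic cells, was detected in 111 of the 135 cells and Cd209a in 84. Zbtb46, a transcription factor of conventional dendritic cells, was found in 64, Clec9a in 38, Ccl22 in 35, Xcr1 in 26, Siglech in 15 and Fscn1 in 9. Most members sat close to the lower limit of genes. Exactly 2 of the 8 genes were found in 62 members, 3 in 42, 4 in 24 and at least 5 in 7. Just outside the rule, 115 cells had 1 of the 8 genes and met all other conditions, of which 32 entered through Clec9a and 24 through Cd209a, and their median of 37 Cd74 UMIs compared with 430.5 in members with exactly 2 genes. Of the cells with at least 2 genes, 63 fell short on Cd74, and 88 were left out for an excluded gene, 79 of them for Cdh5. ERG CKO replicate 1 supplied 49 of these 79 cells, and the other libraries supplied 8, 8 and 14.

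Detection of the 8 genes outside dendritic cells was compared with cells that should lack them. Among 1352 cells with Cd3e, a T cell gene, at a median of 6477.5 UMIs, the 8 genes were found in 0% (Siglech) to 1.11% (Zbtb46) of cells. Among 3700 cells with Cdh5, at a median of 4270 UMIs, Zbtb46 was found in 17.6% and Fscn1 in 10.2%, and the other 6 genes in 0.162% to 0.946%. The dendritic cells had a median of 15982 UMIs, so they were also sampled more deeply than either.

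The 4 libraries held 11263911 to 18646776 UMIs in 1852 to 3097 cells, and the dendritic cells 326458 to 940984 UMIs in 21 to 60 cells. Median depth of dendritic cells was close between libraries, at 15529.5 to 17591 UMIs. Between libraries, 7 barcodes recurred, none of them in a dendritic cell, and none of the 71 doublets called by Scrublet was a dendritic cell. Erg, the targeted gene, stood at 86.4 and 75.5 CPM in Cdh5 cells of the WT libraries and at 92.4 and 73.9 CPM in those labelled ERG CKO, which did not separate the groups. Counts read near the 3' end would not show a deletion elsewhere in the gene, so this does not check the labels. The dendritic cells held 1, 0, 0 and 1 Erg UMIs. Xist was found in dendritic cells of replicate 1 only, and the Y-linked Ddx3y of replicate 2 only, so each group held 1 female and 1 male library. With 2 mice in each group, 0.333 is the lowest p that exact permutation can reach, and p-values measure the spread between these mice.

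Dendritic cells took a larger share of the cells in both libraries labelled ERG CKO than in either WT library. They made up 1.02% (23 of 2264 cells, 95% Wilson interval 0.678% to 1.52%) and 0.977% (21 of 2150, 0.640% to 1.49%) of the WT libraries. In the libraries labelled ERG CKO they made up 1.94% (60 of 3097, 1.51% to 2.49%) and 1.67% (31 of 1852, 1.18% to 2.37%). The groups did not overlap, with means of 0.996% ± 0.0277 and 1.81% ± 0.186 (SD, n = 2), a ratio of 1.81 and p = 0.333 in the exact permutation test (two-sided). Intervals cover counting error only.

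**Figure D1:**
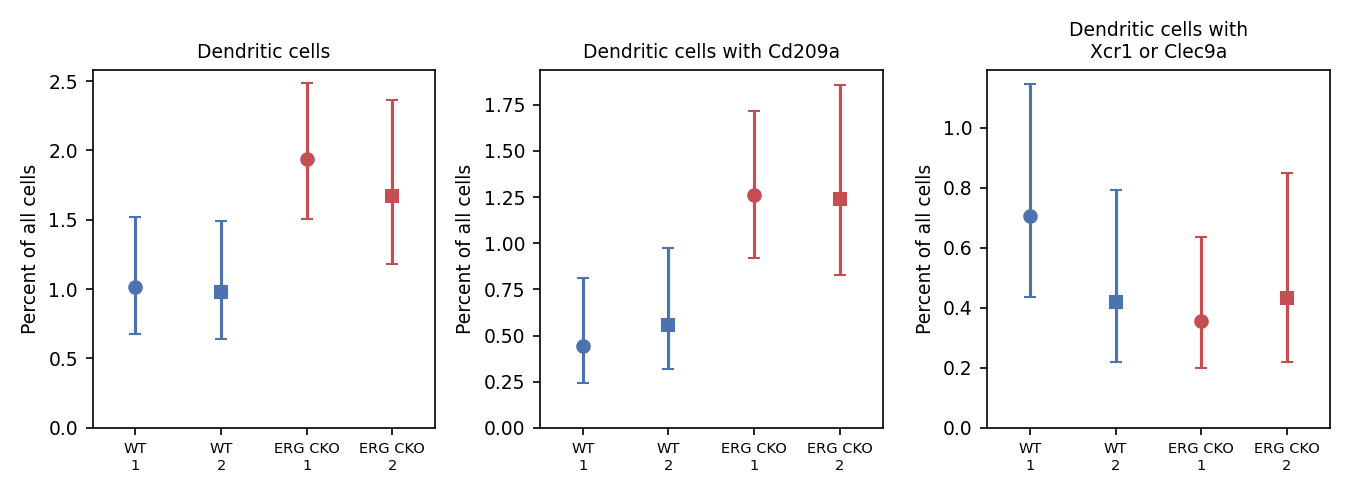
Share of all cells of each library (y axis, percent) that were dendritic cells, dendritic cells with Cd209a, and dendritic cells with Xcr1 or Clec9a, for WT replicates 1 and 2 (blue) and ERG CKO replicates 1 and 2 (red), with 95% Wilson intervals as bars. Both ERG CKO libraries lay above both WT libraries in the first panel (1.94% and 1.67% against 1.02% and 0.977%) and the second, and the groups overlapped in the third.

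The direction held over other denominators. Among cells with a UMI of Ptprc, the pan-leukocyte antigen CD45, which made up 47.6% to 53.8% of each library, dendritic cells took 1.99% and 1.89% in WT, against 4.07% and 3.11% for ERG CKO. Among cells of at least 2000 UMIs the shares were 1.22% and 1.12% against 2.60% and 2.07%. With every cell down-sampled to 1000 UMIs (cells below that depth, 178 and 123 from WT plus 433 and 179 from ERG CKO, were dropped), the rule found 4 and 2 cells in WT, against 11 and 5 for ERG CKO, or 0.192% and 0.0987% against 0.413% and 0.299%. A requirement of at least 3 genes gave 0.618% and 0.558% in WT, against 1.16% and 0.594% for ERG CKO, with ERG CKO replicate 2 now between the WT libraries. Without the cells with 3 or more macrophage markers the shares were 0.663% and 0.605% against 1.45% and 0.972%. A share cannot tell more dendritic cells apart from fewer other cells.

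The larger share lay in cells with Cd209a. These cDC2-marked cells numbered 10 and 12 in WT, against 39 and 23 for ERG CKO, and took 0.442% and 0.558% of all cells in WT, against 1.26% and 1.24% for ERG CKO, 2.50 times the WT mean. Without the macrophage-marked cells they numbered 5 and 5 against 27 and 13. Cells with Xcr1 or Clec9a numbered 16 and 9 in WT, against 11 and 8 for ERG CKO, and took 0.707% and 0.419% of all cells against 0.355% and 0.432%, which overlapped (exact permutation p = 0.667). Over cells with Ptprc this share was 1.38% and 0.851% in WT, against 0.746% and 0.803% for ERG CKO, without overlap. These 2 shares over all cells were added after the data were seen.

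Within the dendritic cells, the mix of subsets differed between the groups in both conventional subsets. Cells with Xcr1 or Clec9a made up 69.6% and 42.9% of the dendritic cells in WT, against 18.3% and 25.8% for ERG CKO, a difference of -34.1 points between means of 56.2% ± 18.9 and 22.1% ± 5.28 (SD, n = 2). Cells with Cd209a made up 43.5% and 57.1% in WT, against 65.0% and 74.2% for ERG CKO, a difference of 19.3 points. Cells with Siglech made up 21.7% and 14.3% against 8.33% and 6.45%, from 5, 3, 5 and 2 cells. Cells with Ccl22 or Fscn1 made up 26.1% and 23.8% against 35% and 22.6%, which overlapped. The first 3 of these groups did not overlap (exact permutation p = 0.333 each, or 0.444 adjusted by Benjamini-Hochberg for 4 subsets), and for migratory genes p was 1. The intervals of single libraries were wide, and that of WT replicate 2 for Xcr1 or Clec9a, 24.5% to 63.5%, overlapped those of both ERG CKO libraries. WT replicate 1 carried much of these differences, which without it were -20.8 points for Xcr1 or Clec9a, 12.5 for Cd209a and -6.89 for Siglech, and without ERG CKO replicate 1 the difference for Ccl22 or Fscn1 was -2.37 points. With at least 3 of the 8 genes required, cells with Ccl22 or Fscn1 made up 21.4% and 25.0% against 41.7% and 36.4%, which did not overlap. Those with Siglech then overlapped. Without the macrophage-marked cells, cells with Cd209a made up 33.3% and 38.5% against 60.0% and 72.2% (30.2 points), and the difference for Xcr1 or Clec9a was -38.1 points.

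**Figure D2:**
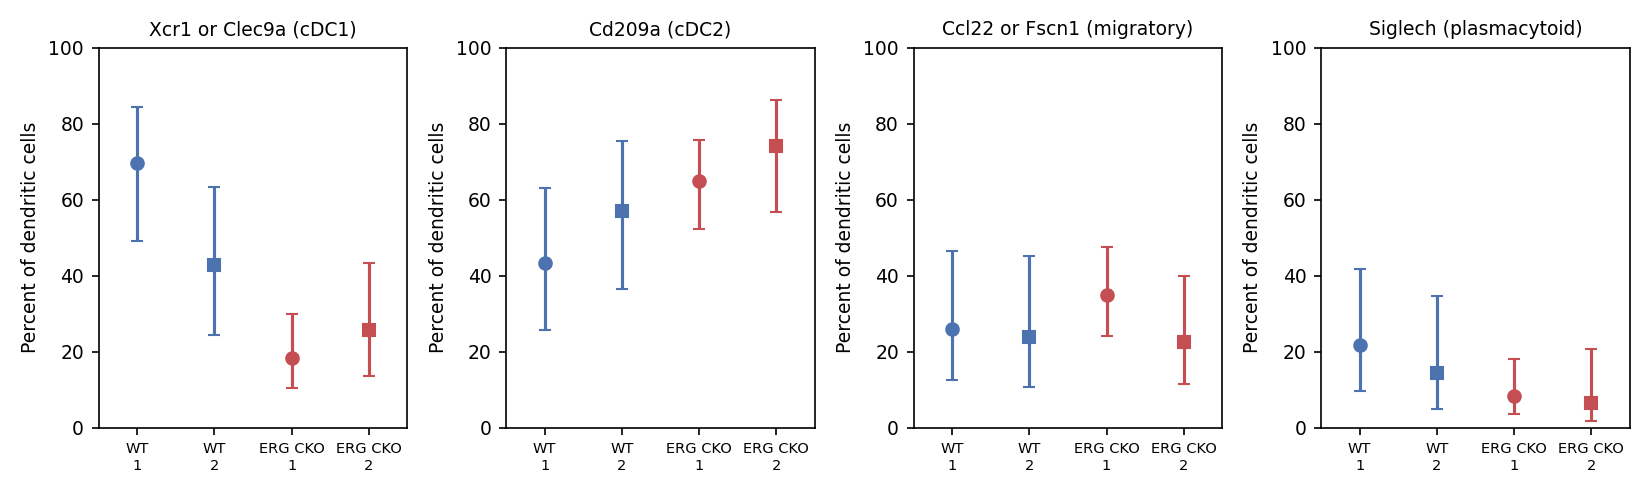
Percent of dendritic cells of each library (y axis) with at least 1 UMI of Xcr1 or Clec9a, of Cd209a, of Ccl22 or Fscn1, and of Siglech, in WT (blue) and ERG CKO (red) replicates 1 and 2, with 95% Wilson intervals. The cDC1 share was 69.6% and 42.9% in WT, against 18.3% and 25.8% for ERG CKO, and the cDC2 share was higher in both ERG CKO libraries.

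The subsets were not exclusive. Genes of 1 subset alone marked 20 cells as cDC1, 57 as cDC2, 10 as migratory and 0 as plasmacytoid, whereas 44 cells had genes of several subsets and 4 of none. Cells marked as cDC2 alone numbered 5, 8, 27 and 17 in WT replicates 1 and 2 and ERG CKO replicates 1 and 2, and those marked as cDC1 alone 5, 5, 6 and 4. Both Cd209a and a cDC1 gene were found in 10 cells. Migratory genes were shared by both conventional subsets, since 13 cells had them beside Xcr1 or Clec9a and 16 beside Cd209a. Every cell with Siglech had a gene of another subset. Among these 15 cells Tcf4, the factor that specifies plasmacytoid cells, was found in 80.0%, Bst2 in 80.0%, Irf8 in 73.3%, and Spib and Ccr9 in 26.7% each. Bst2 was about as common in the other sets, and Irf8 more common in cDC1-marked cells. In the 34 cells with Xcr1 or Clec9a and no Cd209a these 5 genes were found in 50.0%, 82.4%, 94.1%, 2.94% and 23.5%, and in the 74 cells with Cd209a and no cDC1 gene in 66.2%, 81.1%, 25.7%, 4.05% and 2.70%.

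The split by Cd209a and the cDC1 genes separated known programmes in genes that were not used to make it. In the 34 cells with Xcr1 or Clec9a and no Cd209a, Irf8 was detected in 94.1%, Rab7b, a small GTPase, in 91.2%, Ifi205 in 73.5%, Cadm1, an adhesion molecule of cDC1, in 67.6%, Itgae, the integrin CD103, in 58.8%, and Tlr3, a sensor of double-stranded RNA, in 55.9%. In the 74 cells with Cd209a and no cDC1 gene the same genes were detected in 25.7%, 13.5%, 5.41%, 18.9%, 6.76% and 2.70%. The reverse held for Sirpa, an inhibitory receptor of cDC2, found in 81.1% of cells with Cd209a and 17.6% of cells with cDC1 genes. Itgam, the integrin CD11b, was found in 77.0% against 5.88%, Csf1r, the receptor for macrophage colony stimulating factor, in 68.9% against 14.7%, Mgl2 in 74.3% against 14.7%, and Cfp, which encodes properdin of the complement system, in 87.8% against 35.3%. Batf3 (73.5% against 56.8%) and Ccr2, a chemokine receptor of monocyte-derived and conventional cells (76.5% against 73.0%), were found in both. The genes of this paragraph and the next were picked after their values were seen. Itgam occupies 2 rows of the matrix, and the row with more UMIs was used. Median depths were 19097 and 15837.5 UMIs, and these shares are descriptions of cells pooled over the 4 libraries.

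**Figure D3:**
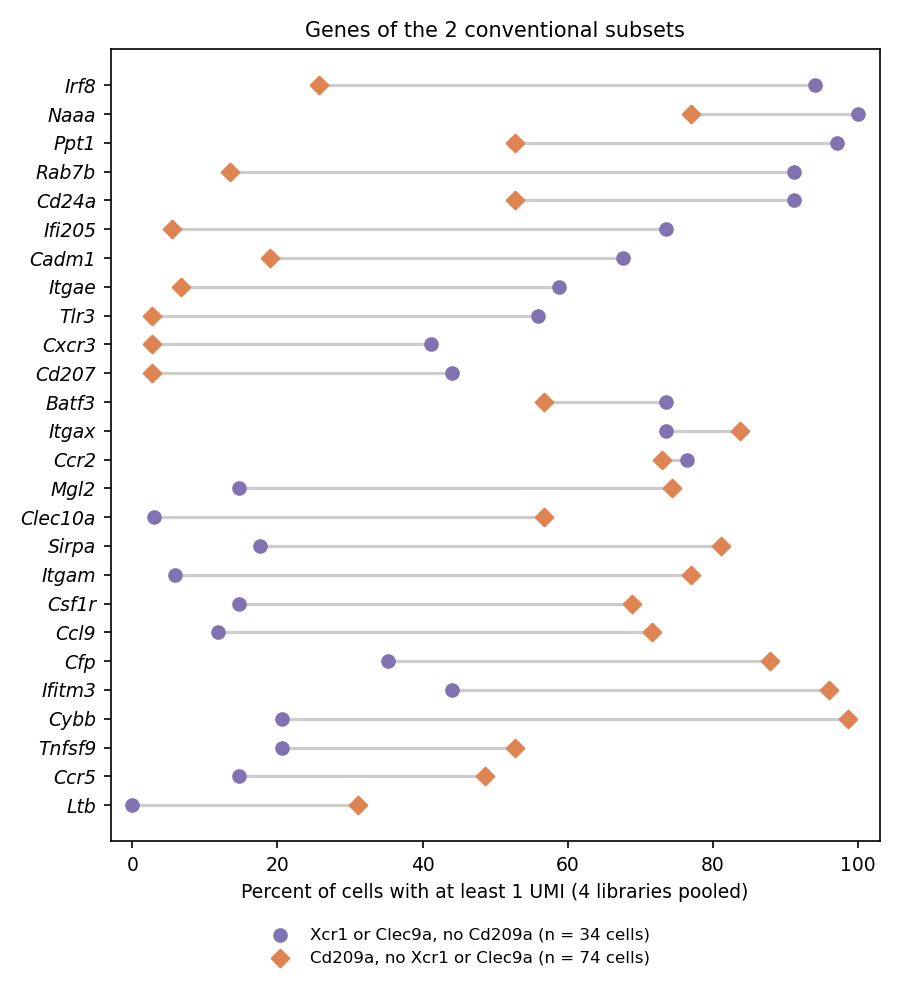
Percent of cells with at least 1 UMI (x axis, libraries pooled) of genes not used in the split, in 34 dendritic cells with Xcr1 or Clec9a and no Cd209a (circles) and 74 with Cd209a and no Xcr1 or Clec9a (diamonds). Irf8, Rab7b and Ifi205 stood far higher in the former and Itgam, Sirpa and Mgl2 in the latter, and Batf3 and Ccr2 lay close together.

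The 25 dendritic cells with Ccr7, some of which belong to the sets above, were set beside the 34 cDC1-marked and 74 cDC2-marked cells in genes outside the rule. Il4i1, an amino acid oxidase of mature dendritic cells, was found in 44.0% of the Ccr7 cells and in 2.94% and 12.2% of the cDC1-marked and cDC2-marked cells, the costimulatory ligand Cd80 in 60.0% against 20.6% and 32.4%, and Relb, a subunit of NF-kB, in 76.0% against 32.4% and 43.2%. Ccr7 cells numbered 3 and 3 in WT, against 15 and 4 for ERG CKO, or 13% and 14.3% against 25.0% and 12.9% of the dendritic cells, which overlapped.

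To ask which genes differed in dendritic cells between the groups, UMIs were summed per library over the 135 cells and 4967 genes were tested with edgeR. After Benjamini-Hochberg adjustment none passed 0.05 (0% of genes), with 343 at an unadjusted p under 0.05 and a lowest adjusted p of 0.134. Without the macrophage-marked cells it called 0 of 3189, with 274 at an unadjusted p under 0.05. With every cell thinned to 1000 UMIs it called 0 of 365. List medians given below for such alternatives are taken over the list genes still tested there, so after thinning they rest on far fewer genes. DESeq2 called 20 of the 4967 genes (0.403%), 14 higher and 6 lower. On simulated counts at these depths edgeR called 22.7% of genes changed by 1 on the log2 scale and 91.1% of those changed by 2. It also called 4 unchanged genes. Spread was drawn from the fitted trend alone, so these rates do not cover genes that vary more than the trend. The median log2 fold change over all genes was -0.01. Levels of both ERG CKO libraries lay above both WT libraries for 825 genes (16.6%) and below both for 902 (18.2%), the background against which gene lists are given below. Fold changes are log2, with positive values higher in ERG CKO, and CPM values of the fits are scaled by TMM, edgeR's normalisation. Values of smaller sets of dendritic cells and sums over markers are CPM of the raw total, as said beside them.

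Genes of the cDC1 programme stood lower in ERG CKO. Of 15 tested genes of the list that the rule did not use, 14 had a negative fold change, 10 did not overlap between the groups and were lower, none was higher throughout, and the median was -0.89. DESeq2 called 2 of them, and edgeR none. Irf8 measured 545 and 662 CPM in WT and 229 and 304 CPM in ERG CKO, and was found in 69.6% and 71.4% of WT, against 31.7% and 35.5% of ERG CKO dendritic cells. Its fold change was -1.19 (SE 0.23, adjusted p = 0.188 with edgeR and 0.0181 with DESeq2). Itgae measured 159 and 110 CPM against 42.7 and 10.6 CPM (adjusted p = 0.207 with edgeR and 0.0486 with DESeq2). Naaa, an acid amidase abundant in cDC1, measured 696 and 614 CPM against 364 and 344 CPM, and Ppt1, a lysosomal thioesterase, 418 and 364 CPM against 210 and 200 CPM. Wdfy4, which cDC1 need for cross-presentation, overlapped, with 344 and 315 CPM against 324 and 268 CPM. Among the 5 genes of smallest p on the lower side was Cd207 (langerin), found in 44.1% of cDC1-marked and 2.70% of cDC2-marked cells. It measured 151 and 205 CPM in WT and 27.3 and 40.4 CPM in ERG CKO (fold change -2.42, SE 0.31, adjusted p = 0.134 with edgeR and 0.00262 with DESeq2).

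Genes of the cDC2 list were split. Of 13 tested genes outside the rule, 8 were higher in both ERG CKO libraries and 1, Klf4, was lower, and the median was 0.40. That median was 0.87 without WT replicate 2 and 1.15 without the macrophage-marked cells. Mgl2 measured 646 and 588 CPM in WT and 1179 and 1250 CPM in ERG CKO (fold change 0.98, SE 0.19, adjusted p = 0.188 with edgeR and 0.00900 with DESeq2). Tnfsf9, which encodes the ligand of the costimulatory receptor 4-1BB, measured 230 and 127 CPM against 489 and 525 CPM (1.49, SE 0.29, adjusted p = 0.188 with edgeR and 0.00771 with DESeq2). Ifitm3, an antiviral membrane protein, measured 622 and 1075 CPM against 1163 and 1076 CPM, where WT replicate 2 and ERG CKO replicate 2 lay side by side. Klf4, on the list as a transcription factor of cDC2, measured 683 and 688 CPM against 395 and 349 CPM. It did not mark cDC2 here, with 85.3% of cDC1-marked and 83.8% of cDC2-marked cells, at 662 and 356 CPM of the raw total. Cfp, also among the 5 genes of smallest p on the higher side, measured 122 and 120 CPM against 332 and 336 CPM (1.46, SE 0.21, adjusted p = 0.134 with edgeR and 0.0110 with DESeq2).

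**Figure D4:**
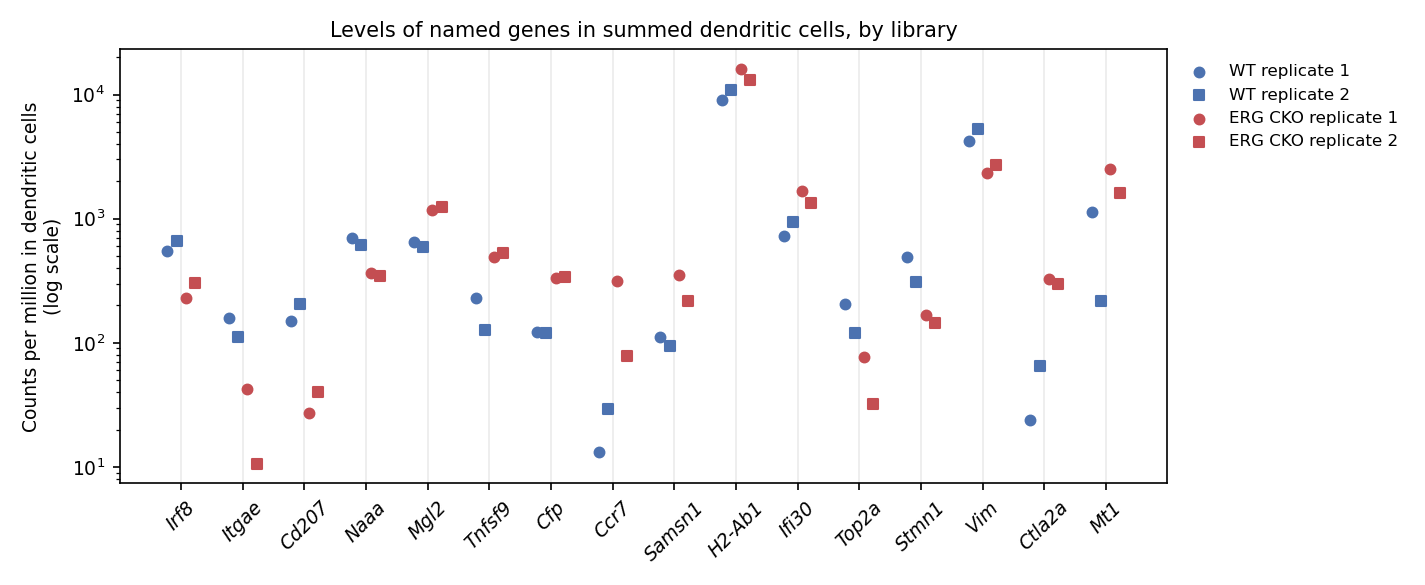
Levels in summed dendritic cells (y axis, TMM-scaled CPM, log scale) of 16 named genes in WT (blue) and ERG CKO (red) replicates 1 (circles) and 2 (squares). Irf8, Itgae, Cd207 and Naaa lay lower and Mgl2, Tnfsf9 and Cfp higher in both ERG CKO libraries, and the 2 ERG CKO libraries stood apart for Ccr7 (314 and 78.7 CPM).

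A sum over all dendritic cells moves with the subset mix, so the fit was repeated in the cells with Cd209a and no Xcr1 or Clec9a (6, 10, 37 and 21 cells), as an alternative added after the data were seen. None of 3170 genes was called by edgeR, with 354 at an unadjusted p under 0.05 and a lowest adjusted p of 0.0537. The median of the 11 cDC2 genes tested there was 0.29, with 6 higher, and that of the 7 cDC1 genes was -0.40. The fold change of Mgl2 was 0.64 in these cells and 0.98 in all dendritic cells, and that of Cfp 1.25 and 1.46. Irf8 measured 226 and 336 CPM in WT and 16.9 and 82.7 CPM in ERG CKO in these cells, and 815, 1325, 932 and 671 CPM in the 12, 7, 9 and 6 cells with cDC1 genes and no Cd209a, where the groups overlapped. All 8 of these Irf8 values are CPM of the raw total. A fit of cells with Cd209a and genes of no other subset was not run, since WT had 5 and 8 such cells and at least 10 per library were required. The added fit, with 6 cells in WT replicate 1, did not meet that minimum either.

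Genes of MHC class II presentation stood higher in ERG CKO, with 10 of 13 tested genes higher in both libraries, none lower, and a median of 0.41, or 0.20 with at least 3 of the 8 genes required. H2-Ab1 measured 9101 and 10939 CPM in WT and 16068 and 13102 CPM in ERG CKO (fold change 0.54, SE 0.18, adjusted p = 0.529 with edgeR). H2-Eb1 measured 8614 and 10059 CPM against 16518 and 12220 CPM, and H2-Aa 8664 and 10582 CPM against 14483 and 11117 CPM. H2-DMa, which loads peptides, overlapped at 1189 and 1296 CPM against 1207 and 1059 CPM. Ifi30, a lysosomal thiol reductase of antigen processing, measured 728 and 932 CPM against 1677 and 1333 CPM and was called by DESeq2 alone (adjusted p = 0.0459, and 0.311 with edgeR). In the cells with Cd209a and no cDC1 gene all 13 genes had a positive fold change, with a median of 0.67, and H2-Ab1 measured, in CPM of the raw total, 7599 and 10102 CPM in WT and 15589 and 15171 CPM in ERG CKO. Cd74, the invariant chain, measured 23789 and 27771 CPM against 40220 and 33395 CPM in all dendritic cells. It is a gene of the rule and is not counted with the list. Members with 5 to 20 Cd74 UMIs numbered 3 and 3 in WT, against 1 and 1 for ERG CKO. The gene fit was not repeated at a higher Cd74 minimum, so the part of this selection in the list was not tested. Genes of MHC class I and cross-presentation showed no such shift, since none of 13 was higher in both libraries, 2 were lower, and the median was -0.04, or 0.15 without ERG CKO replicate 2. B2m, H2-D1, H2-K1 and Psmb8 overlapped between the groups.

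Maturation genes stood higher in ERG CKO replicate 1. Of 13 tested genes of the migratory list outside the rule, 12 had a positive fold change, 5 were higher in both ERG CKO libraries, 1 (Ccl17) was lower, and the median was 0.81. Without ERG CKO replicate 1 that median was 0.066, and after thinning 0.085. Ccr7 measured 13.2 and 29.2 CPM in WT and 314 and 78.7 CPM in ERG CKO (fold change 3.28, SE 0.72, adjusted p = 0.209 with edgeR and 0.00368 with DESeq2). In ERG CKO replicate 2, 1 cell held 67.6% of the Ccr7 UMIs. Samsn1, an adaptor protein, measured 111 and 94.2 CPM against 353 and 217 CPM (adjusted p = 0.188 with edgeR and 0.0433 with DESeq2), and Marcks 320 and 325 CPM against 595 and 434 CPM. Traf1, a signalling adaptor of the NF-kB pathway, overlapped at 204 and 308 CPM against 434 and 266 CPM, and Ccl17 measured 688 and 757 CPM against 608 and 283 CPM. Of 9 costimulation and checkpoint genes, 3 were higher in both ERG CKO libraries and 2 lower (median 0.45, turning to -0.24 without ERG CKO replicate 1 and -0.04 with at least 3 of the 8 genes). That median was 0.21 without the macrophage-marked cells. It was 1.04 over the 7 genes tested in the cells with Cd209a and no cDC1 gene. Cd83 measured 564 and 649 CPM against 838 and 908 CPM, Cd86 143 and 130 CPM against 255 and 111 CPM, and Cd48, a ligand of lymphocyte receptors, 344 and 321 CPM against 264 and 281 CPM.

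Genes of inflammatory signalling lay on both sides. Of 9 genes of cytokines and NF-kB feedback, 5 were higher in both ERG CKO libraries and 1, Tnf, was lower (median 0.38). Il1b measured 792 and 971 CPM in WT and 1527 and 1235 CPM in ERG CKO, and Nfkbia, the inhibitor of NF-kB, 1062 and 1234 CPM against 1799 and 1605 CPM. Nfkbiz measured 228 and 208 CPM against 302 and 264 CPM, and Tgfb1 overlapped at 246 and 305 CPM against 248 and 249 CPM. Among 10 chemokine genes 3 were higher in both ERG CKO libraries and 2 lower (median 0.37, turning to -0.27 without ERG CKO replicate 1 and -0.25 after thinning, and 0.087 without WT replicate 1). Without the macrophage-marked cells that median was 0.65. Ccl2, which recruits monocytes, measured 84.7 and 169 CPM against 368 and 321 CPM and was called by DESeq2 alone (adjusted p = 0.0302, and 0.207 with edgeR), with 94.2% of the UMIs of WT replicate 2 in 1 cell. Cxcl2 measured 816 and 377 CPM against 326 and 63.8 CPM. Ccl6 and Ccl4 overlapped. Among 8 chemokine receptor genes the median was 0.05, or -0.18 without ERG CKO replicate 2. It was 0.67 without the macrophage-marked cells and 0.55 without the highest cell of each gene. Ccr2 overlapped, Cxcr4 measured 140 and 110 CPM against 179 and 149 CPM, and Ccr1 lay at 79.4 CPM in replicate 1 of both groups. Of 7 mediators named by the study, a list that is no independent evidence, 3 were high enough to test (median -0.04, and -1.43 to 1.77 over the alternatives). Ccl6 is given above, Cxcl10 had 0, 10, 72 and 49 UMIs from 0, 1, 5 and 2 cells and Tnf measured 109 and 81.2 CPM against 71.1 and 48.9 CPM.

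Cell cycle genes stood lower in ERG CKO, with all 11 tested genes negative, 8 of them lower in both libraries and a median of -1.0, or -0.30 after thinning. Stmn1, which regulates microtubules, measured 487 and 308 CPM in WT and 168 and 145 CPM in ERG CKO (fold change -1.34, SE 0.27, adjusted p = 0.188 with edgeR and 0.0302 with DESeq2). Top2a, a topoisomerase of dividing cells, measured 207 and 120 CPM against 77.1 and 31.9 CPM, from 5, 2, 8 and 2 cells. The values rested on few cells, since 1 cell held 97.3% of the Top2a UMIs of WT replicate 2 and 93.3% of those of ERG CKO replicate 2. Hist1h2ae and Prc1, a histone and a cytokinesis gene that were among the 5 of smallest p on the lower side, were found in 2 to 4 and 1 to 5 cells per library. Tubb5 measured 932 and 461 CPM against 358 and 364 CPM, and Hmgb2 overlapped at 829 and 380 CPM against 429 and 374 CPM.

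Plasmacytoid genes were mostly lower, with 7 of 8 tested genes outside the rule negative, 6 lower in both libraries and a median of -1.74. It was -1.03 when WT replicate 1 was left out, -0.83 when ERG CKO replicate 1 was left out, and -0.19 with at least 3 of the 8 genes. Bst2, a tetherin that restricts virus release, measured 352 and 334 CPM in WT and 159 and 257 CPM in ERG CKO, and Tcf4 180 and 153 CPM against 129 and 151 CPM. Irf7, the interferon regulator, overlapped at 47.7 and 71.4 CPM against 102 and 31.9 CPM. The lowest value of this list, Ly6d, came from 20, 15, 0 and 1 UMIs, all from 1 cell in each library that had any.

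The remaining lists had medians between -0.25 and 0.38, and 4 of these medians turned sign under an alternative. Shared genes of conventional dendritic cells had 4 of 12 genes higher in both ERG CKO libraries and a median of 0.13 (-0.36 after thinning), with Ptprc and Spi1 a little higher and Cst3 and Id2 overlapping. The medians were -0.25 (0.073 with at least 3 of the 8 genes) for 7 pattern recognition genes, of which Tlr2 and Clec12a were lower in both ERG CKO libraries while Cd14 and Clec4n overlapped, and 0.08 (-0.07 without WT replicate 1 and -0.13 after thinning) for 13 genes of adhesion and trafficking, where Itgb2, Itgb7 and Selplg overlapped and Cd44 measured 612 and 630 CPM against 241 and 606 CPM. Interferon-stimulated genes had a median of 0.38, with 4 of 10 higher in both ERG CKO libraries and 1 lower. It turned to -0.09 without ERG CKO replicate 1, -1.12 after thinning and -0.29 in the cells with Cd209a and no cDC1 gene, where 3 of 8 genes were positive. Without the macrophage-marked cells it was 0.70. In all, 10 of the 24 genes of that list were high enough to test. Ifi27l2a measured 159 and 253 CPM against 445 and 342 CPM, and Irf1 82.1 and 74.7 CPM against 108 and 128 CPM, while Ly6e overlapped. Of 16 immediate early and dissociation stress genes, 6 were lower in both ERG CKO libraries and 2 higher (median -0.13). Fosb, an AP-1 subunit, measured 1258 and 1464 CPM against 707 and 744 CPM (DESeq2 adjusted p = 0.0204, and 0.207 with edgeR), Fos 1835 and 1737 CPM against 1199 and 1110 CPM, and Junb, Dusp1 and Btg2 overlapped.

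**Figure D5:**
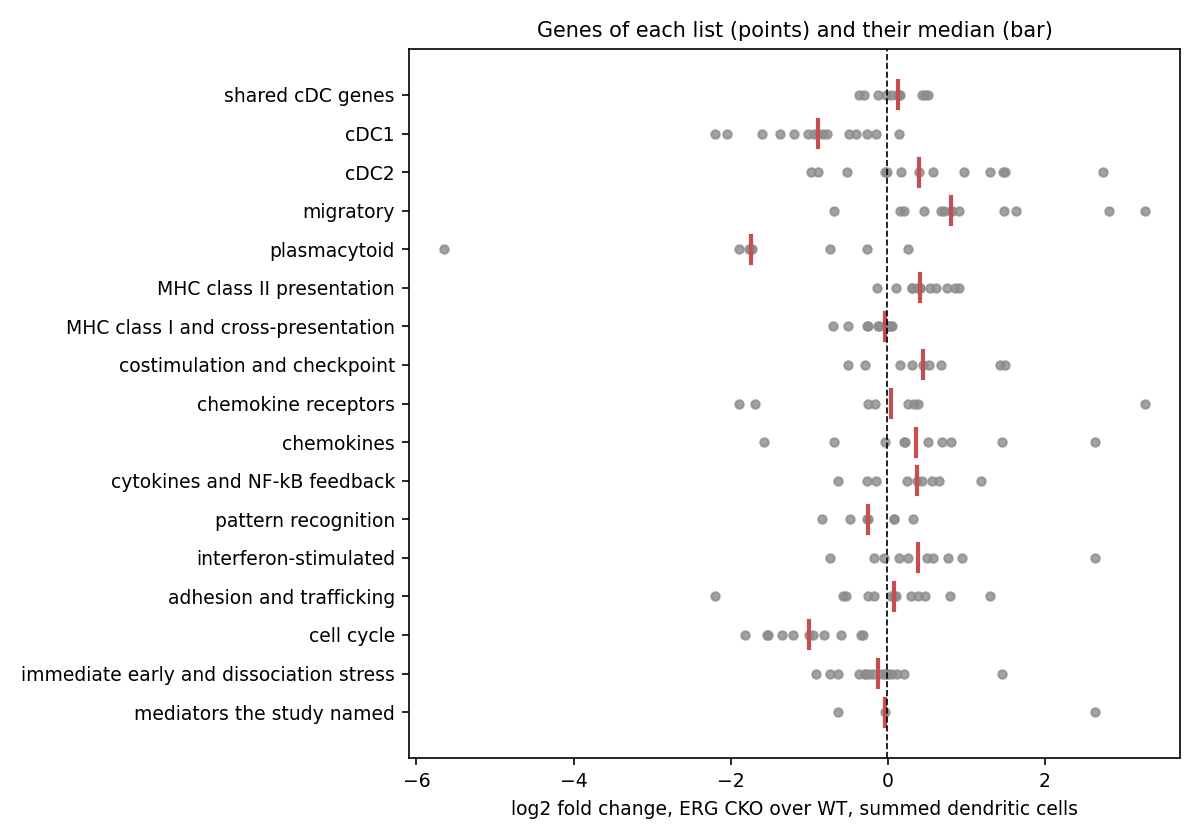
Log2 fold change (x axis, ERG CKO over WT, summed dendritic cells) of the tested genes of 17 lists (points, genes of the selection rule left out) with the median of each list (red bar), and the median of all 4967 tested genes (dashed line, -0.01). The medians of cDC1 (-0.89), cell cycle (-1.0) and plasmacytoid genes (-1.74) lay below and those of migratory (0.81) and MHC class II genes (0.41) above that line.

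Beside these lists, the genes called by DESeq2 alone, or among those of smallest p, included Vim, an intermediate filament protein, at 4202 and 5305 CPM in WT and 2335 and 2683 CPM in ERG CKO (fold change -0.92, adjusted p = 0.201 with edgeR and 0.00865 with DESeq2). Mdh2, a mitochondrial malate dehydrogenase, measured 90 and 146 CPM against 292 and 334 CPM, Etv3 175 and 198 CPM against 468 and 364 CPM, and Tmem176b 220 and 386 CPM against 855 and 574 CPM. Cldn1, a tight junction protein, measured 119 and 77.9 CPM against 22.5 and 21.3 CPM and was found in 47.1% of cDC1-marked and 18.9% of cDC2-marked cells. Nrgn measured 15.9 and 22.7 CPM against 86.6 and 168 CPM and Gng11 15.9 and 22.7 CPM against 85.4 and 174 CPM. Both are genes of platelets, and at least 2 of 5 platelet markers were found in 17.4% and 14.3% of WT, against 36.7% and 16.1% of ERG CKO dendritic cells, and in 5.13% to 20% of the other cells. The 5 markers summed to 83.5, 45.9, 331 and 1059 CPM of the raw total in the dendritic cells of the 4 libraries, and their part in the result was not tested. Without the cells that had at least 2 platelet markers edgeR again called 0 of 4514 genes, with 305 at an unadjusted p under 0.05, and Nrgn, Gng11 and Ccr7 were then too low to test.

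Whether a difference between the groups was larger in dendritic cells was tested as an interaction, against all other cells with at least 5 Cd74 UMIs of the same libraries (563 to 896 cells each), which were not selected for a cell type. Cd74 was found in 60.1% of cells with Cdh5. Of 11699 genes, 10 were called by edgeR (0.0855%), 5 with a more positive change in dendritic cells and 5 with a more negative change. Mt1, a metallothionein, measured 1139 and 218 CPM in WT and 2504 and 1611 CPM in ERG CKO dendritic cells and 686, 362, 445 and 471 CPM in the other cells (interaction 2.09, adjusted p = 0.00672), and was found in 56.5% and 47.6% of WT, against 80.0% and 80.6% of ERG CKO dendritic cells. Ctla2a, an inhibitor of cathepsins, measured 23.8 and 64.9 CPM against 325 and 296 CPM in dendritic cells and 619, 845, 1465 and 755 CPM in the other cells (2.36, adjusted p = 0.00275), with 68.3% of the UMIs of ERG CKO replicate 2 in 1 cell. Ccr7 in the other cells measured 98.6, 164, 150 and 141 CPM, which overlapped between the groups (2.94, adjusted p = 0.0190). Fabp5, a fatty acid binding protein, measured 60.9 and 90.9 CPM against 196 and 298 CPM (2.01, adjusted p = 0.0167), and in each library 1 cell held 51.5% to 78.3% of its UMIs. Areg, the growth factor amphiregulin, had 2, 0, 40 and 9 UMIs in dendritic cells.

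The genes with a more negative change rested on few dendritic cells or on the other cells. Igha, the heavy chain of immunoglobulin A, had 11, 0, 6 and 2 UMIs in dendritic cells and measured 1.75, 0.364, 1127 and 1099 CPM in the other cells. Cxcl13 had 414 UMIs in 1 dendritic cell of WT replicate 1 and 0 in the other libraries. Ly6d, Hist1h2ae and Plat, tissue plasminogen activator, had 0 to 28 UMIs per library. No gene of the rule was read from this comparison.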

How the data were processed

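Single-cell UMI counts of whole mouse lung, 1 library per mouse, were analysed as deposited. Per the labels, the authors sequenced 10x Genomics libraries, and the submitters' processing notes name Cell Ranger 3.1.0 and genome build mm10. The deposited matrix held raw counts of 20076 rows in 9363 cells, with at least 500 UMIs in each. On 13 symbols the matrix had 2 rows, which were kept apart. The study compared cells one by one, whereas here counts were summed per library, since the mouse is the replicate.

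Members and gene lists were chosen with earlier results of these data known. Shares were compared with exact permutation tests (scipy 1.17.1). Sums were tested with edgeR 4.0.16 (quasi-likelihood, TMM, filterByExpr, Benjamini-Hochberg adjusted p of at most 0.05) in R 4.3.3, with DESeq2 1.42.0 as an alternative, after a check on simulated counts. Doublets were called with Scrublet in scanpy 1.11.5. Genes were named by rule: those of the selection, those called in either fit by smallest p, the 5 higher and 5 lower of smallest unadjusted p where under 5 were called, and from each list its called members and the 4 of highest level. Other named genes were picked after their values were seen. Alternatives covered the selection rule, depth, mitochondrial share, doublets, macrophage-marked cells, normalisation, low counts and each library in turn. Depth was 326458 to 940984 UMIs of dendritic cells per library, and the self-test gave the precision stated with the fit.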

Additional observations from a re-analysis of the deposited data

Results flagged for a closer look

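For 10 genes the difference between ERG CKO and WT in dendritic cells was not the same as in the other cells with at least 5 Cd74 UMIs, by the test of that difference (edgeR interaction, adjusted p at most 0.05, with 2 mice per group). More positive in dendritic cells was the change of Ctla2a (2.36), Mt1 (2.09), Fabp5 (2.01), Ccr7 (2.94) and Areg (4.30), on the log2 scale. More negative was that of Igha (-11.2), Ly6d (-6.41), Cxcl13 (-15.0), Hist1h2ae (-3.91) and Plat (-5.06). These values compare changes between the groups, not levels in the cells. Fitted values of Igha, Ly6d, Cxcl13, Areg and Plat, which had 0 UMIs in at least 1 dendritic cell library, depend on the prior count and are no measure of size. The call of Mt1 was kept in 11 of 13 alternatives, that of Fabp5 in 10 of 13, that of Ccr7 in 9 of 13 and that of Ctla2a in 8 of 13. The call of Igha was kept in 11 of 13, of Ly6d in 11 of 13, of Hist1h2ae in 9 of 12, of Areg in 8 of 12, of Cxcl13 in 7 of 10 and of Plat in 5 of 13. Without WT replicate 1, the calls of Igha, Cxcl13, Ctla2a, Fabp5, Ccr7, Areg and Plat were lost, and with cells over 10% mitochondrial UMIs left out only Igha and Ly6d of the 10 kept theirs.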

How the results depend on the processing

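With 2 mice per group, counts of calls moved with single libraries. In dendritic cells, 0 genes called by edgeR became 20 with DESeq2, 158 with no filter on low counts and 22 to 176 when 1 library was left out (WT replicates 1 and 2 left out: 22 and 84 calls; ERG CKO replicates 1 and 2 left out: 87 and 176 calls). A lone library is then assumed to vary like the other group. For the interaction, 10 calls became 66 with no filter, 53 with at least 3 dendritic cell genes, 60 without macrophage-marked cells, 63 without the highest cell of each gene, 1 after thinning, 2 at 10% mitochondrial UMIs or less, and 6 to 130 without 1 library (WT replicates 1 and 2 left out: 6 and 76, ERG CKO replicates 1 and 2 left out: 53 and 130). The cause of these shifts was not tested.

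The larger dendritic cell share in ERG CKO kept its direction in all alternatives run, 0.678 to 0.941 points without 1 library, and its groups overlapped with at least 3 genes. The migratory share difference ranged from -2.37 to 10.1 points without 1 library, and the plasmacytoid difference was 4.55 points after thinning. Interaction values turned sign for Cxcl13 (3.07 with at least 3 genes) and for Plat in DCs against other Cd74 cells (-5.88 to 4.08 without 1 library, positive without WT replicate 1, and 4.08 with at least 3 genes). Of 155 list genes, 74 kept their sign in every alternative.

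Replicate numbers were not taken to pair the samples: the differences between replicates 1 and 2 correlated at 0.0345 between the groups. In both groups replicate 1 was the female and replicate 2 the male library, so the replicate number also stands for sex. With 1 library left out, its group therefore held a single sex. With the replicate block the share difference stayed 0.809 points, the dendritic cell fit called 0 genes and the interaction 89. The planned fit of cells marked by Cd209a alone was not run.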
